A study of Rattus norvegicus with 6 samples.

Results

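The erythroid cluster of miR-144 and miR-451, and miR-486, were followed in small RNA libraries of rat plasma exosomes as 5 mature miRNAs, namely rno-miR-144-3p, rno-miR-144-5p, rno-miR-451-5p, rno-miR-451-3p and rno-miR-486 (the prefix, for rat, is dropped from here on except where a level is first given). They were taken by name from the 763 mature rat miRNAs listed in the count table, and all 5 were among the 404 that passed the filter on low counts and were tested. Exosomes came from male Sprague-Dawley rats aged 7 to 8 weeks. The RIPC rats (R-exo, 3 libraries) had received remote ischemic pre-conditioning, in which bands tied around both hind limbs under anesthesia stopped the blood flow for 5 min and released it for 5 min, over 4 cycles. The control rats (C-exo, 3 libraries) had no such cycles, and the labels give the treatment of both groups as untreated. Blood was taken 48 h after the protocol, the late phase of RIPC, and vesicles were pelleted from plasma by differential centrifugation. Whether a library came from 1 rat or from pooled plasma is not given in the sources used here, so p-values measure the spread between these libraries.

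miR-144 and miR-451 are cut from neighbouring hairpins of a primary transcript that the transcription factor GATA1 drives in maturing red cells, and they are among the most abundant miRNAs of erythrocytes. miR-451 is matured by Argonaute 2 without the enzyme Dicer, so its hairpin gives essentially a single strand, the 5p arm. miR-486, made from a hairpin within the ankyrin gene Ank1, is abundant in red cells and also in striated muscle. miR-144 has been discussed as a blood-borne mediator of pre-conditioning.

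The sequences of both hairpins and of their 4 arms are shown because the question of this comparison, whether partners of a cluster move together, rests on their arrangement. They are from RefSeq on the assembly GRCr8. Mature strands are written 5′ to 3′ with the seed, bases 2 to 8, in capitals. The sequence of miR-486 is not shown.
miR-144-5p: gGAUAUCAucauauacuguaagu
miR-144-3p: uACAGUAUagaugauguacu
miR-451-5p: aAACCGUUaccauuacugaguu
miR-451-3p: aUGGUAAUgguucucuugcugcu
In the hairpins the capitals mark the 2 mature arms.
Mir144: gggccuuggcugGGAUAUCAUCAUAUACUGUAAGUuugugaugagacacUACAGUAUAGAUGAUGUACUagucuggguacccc
Mir451a: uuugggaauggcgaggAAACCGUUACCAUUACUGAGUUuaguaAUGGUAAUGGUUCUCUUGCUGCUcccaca

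Mir144 lies at chr10:63459397-63459479 and Mir451a at chr10:63459569-63459640, both on the plus strand of GRCr8, with 89 bases between them. The RefSeq gene table lists Flot2 as the gene before Mir144 and Eral1 as the gene after Mir451a, and no gene of that table spans the pair. The counts themselves carry no coordinates. The hairpins differ in their loops. The arms of Mir144 are 14 bases apart and those of Mir451a 5 bases, against a median of 16 over 287 rat hairpins with both arms listed, of which 2 had a gap of 5 bases or fewer. No other rat miRNA in the table had the full seed of any of the 4 arms. miR-101a-3p and miR-101b-3p shared the first 6 of the 7 seed bases of miR-144-3p.

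The libraries held between 5484209 and 7531737 reads on miRNAs, where 3 counts, the smallest amount taken as measurable, correspond to 0.369 to 0.672 CPM. CPM here is the count scaled to a common library size after TMM normalization, which corrects for a few abundant miRNAs taking up reads. C-exo replicate 3 stood apart from its group, since Spearman's rho of log2 CPM across the tested miRNAs was 0.902 and 0.931 with C-exo replicates 1 and 2 but 0.965 to 0.983 with the R-exo libraries. Circulating miRNAs of other sources were present. The summed liver markers (miR-122-5p, miR-192-5p and miR-194-5p) reached 79866 to 109248 CPM in C-exo and 76438 to 81303 CPM in R-exo. The 5 striated muscle markers summed to 1522 to 9673 CPM in C-exo and 1736 to 5040.3 CPM in R-exo, and the cardiac miR-208a-3p had no count in 1 library.

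The 2 arms of miR-144 were higher in R-exo, miR-451-5p and miR-451-3p overlapped between the groups, and miR-486 had a lower mean in R-exo. Of the 5 miRNAs, 2 met the criterion used here (more than a 2-fold difference, the threshold of the study, and p below 0.05 before adjustment) in edgeR's quasi-likelihood test, and both were higher in R-exo. Over all 404 tested miRNAs 9.41% met this criterion, 1.98% with the higher level in R-exo and 7.43% with the lower. That split depended on the fit, since 8 of 38 were higher here, 18 of 33 when scaled by library totals, 27 of 49 with limma-voom and 25 of 38 with the replicate number as a block. Once p-values were adjusted by Benjamini-Hochberg over all 404, 0 miRNAs (0%) were below 0.05 with edgeR, DESeq2 or limma-voom, while 38 had p below 0.05 before adjustment with edgeR. The median log2 fold change of all tested miRNAs was -0.05 with TMM and 0.10 when only the library totals were used for scaling, so a shift of that size is a matter of scaling.

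**Figure D1:**
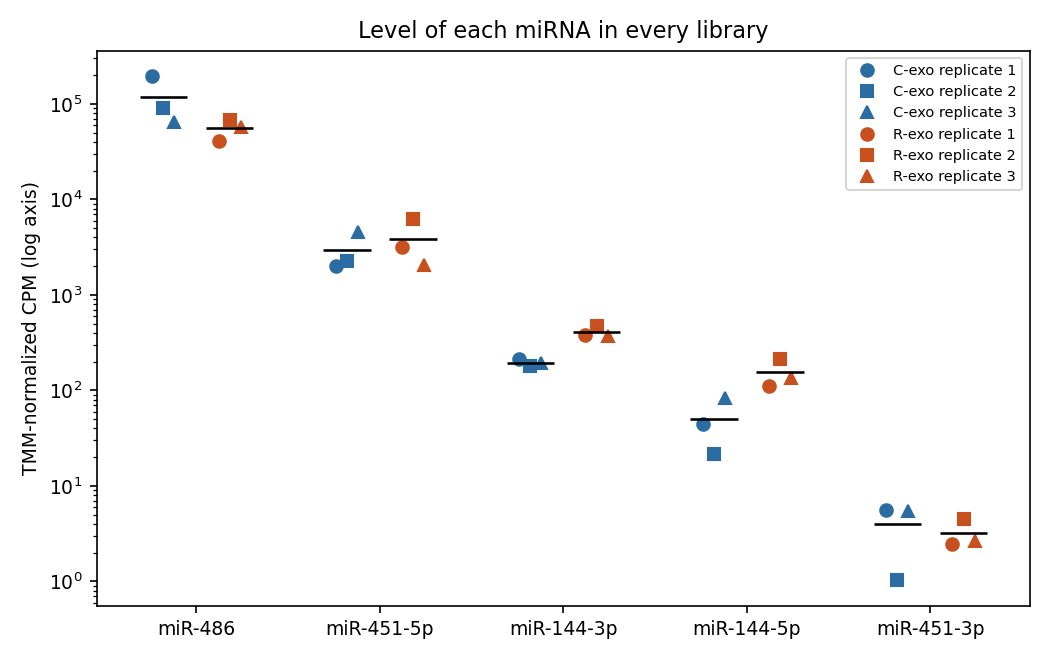
TMM-normalized CPM (log axis) of the 5 miRNAs in each library, C-exo in blue and R-exo in orange, with the marker shape giving the replicate and black lines the group means (n = 3). The R-exo libraries lie above every C-exo library for both arms of miR-144, while miR-451-5p, miR-451-3p and miR-486 overlap between groups.

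miR-144-3p, the arm more abundant of the miR-144 pair, had the tightest groups. The level of rno-miR-144-3p was 212, 181 and 191 CPM in C-exo replicates 1, 2 and 3, and 384, 472 and 374 CPM in R-exo replicates 1, 2 and 3. The groups did not overlap, and the highest and lowest C-exo libraries differed by a factor of only 1.17. The means were 195 ± 15.6 CPM in C-exo and 410.1 ± 53.6 CPM in R-exo (SD, n = 3 each), a 2.11-fold difference with a 95% interval from 1.14 to 3.90. On the log2 scale the difference was 1.07 with a standard error of 0.40 (unadjusted p = 0.023 and adjusted p = 0.46 in edgeR's quasi-likelihood test). The exact two-sided permutation p was 0.1, the smallest that 3 libraries against 3 allow. Without C-exo replicate 2, R-exo replicate 2 or R-exo replicate 3 the unadjusted p was 0.059, 0.10 and 0.084 by edgeR, so the criterion was no longer met.

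The opposite arm, rno-miR-144-5p, had 44.6, 21.5 and 83.3 CPM in controls 1, 2 and 3, and 111, 215 and 136 CPM after RIPC. Again every R-exo library was above every C-exo library, although C-exo replicate 3 lay nearer to R-exo than the other controls did. The means were 49.8 ± 31.2 CPM in C-exo and 154 ± 54.3 CPM in R-exo (SD, n = 3 each), a 3.09-fold difference with a 95% interval from 1.28 to 7.48. On the log2 scale this was 1.63 with a standard error of 0.57 (edgeR p = 0.018, or 0.46 adjusted), with an exact permutation p of 0.1. Leaving out C-exo replicate 3 raised it to 2.23 (edgeR, adjusted p = 0.0080), in a fit where 132 miRNAs had an adjusted p under 0.05. Without R-exo replicate 2 the unadjusted p was 0.053 and the criterion was not met. Of all tested miRNAs 12.9% had no overlap between groups, 4.95% with R-exo higher and 7.92% with R-exo lower, against 2 of the 5 described here, both higher.

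miR-451-5p, the strand that carries the function of miR-451, was far more abundant than either arm of miR-144. The level of rno-miR-451-5p was 2023, 2250.1 and 4599.5 CPM in controls and 3165, 6239 and 2059.6 CPM after RIPC. R-exo replicate 2 was the highest library and C-exo replicate 3 the next, whereas R-exo replicate 3 was as low as C-exo replicates 1 and 2. The means were 2957 ± 1427 CPM in C-exo and 3821 ± 2165 CPM in R-exo (SD, n = 3 each). The log2 fold change of miR-451-5p was 0.37 with a standard error of 0.55 (edgeR, unadjusted p = 0.52), and its 95% interval ran from -0.86 to 1.60. This interval holds both no change and the change of miR-144-3p. Without R-exo replicate 2 the log2 fold change was -0.17, and without C-exo replicate 3 it was 0.84.

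miR-451-3p, the strand opposite to the functional one, was close to the floor. For rno-miR-451-3p there were 25, 8 and 38 reads in controls and 20, 31 and 20 reads after RIPC, or 1.02 to 5.60 CPM in all. On the log2 scale R-exo differed by -0.32 with a standard error of 0.73 (edgeR, unadjusted p = 0.67). No difference was detected at these low counts, and the highest and lowest C-exo libraries differed by a factor of 5.47 in CPM.

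miR-486 was the most abundant of the 5 by a wide margin, and by mean CPM it ranked 1 among all miRNAs in C-exo and 4 in R-exo. The level of rno-miR-486 was 195795, 89943 and 64399 CPM in controls and 40875, 68033 and 57599 CPM after RIPC. C-exo replicates 1 and 2 lay above all R-exo libraries, but C-exo replicate 3 fell below R-exo replicate 2, so the groups overlapped. The means were 116713 ± 69668 CPM in C-exo and 55502 ± 13699.9 CPM in R-exo (SD, n = 3 each). The log2 fold change of miR-486 was -1.07 with a standard error of 0.48 and a 95% interval of -2.15 to 0.01 (edgeR p = 0.052, or 0.47 adjusted), with an exact permutation p of 0.2. Without C-exo replicate 1 it was -0.56, and without C-exo replicate 3 it was -1.35 and an edgeR adjusted p of 0.016. Without the filter on low counts, or with the 5 miRNAs kept out of the normalization, the unadjusted p was 0.038 and 0.039 in edgeR and the criterion was met.

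**Figure D2:**
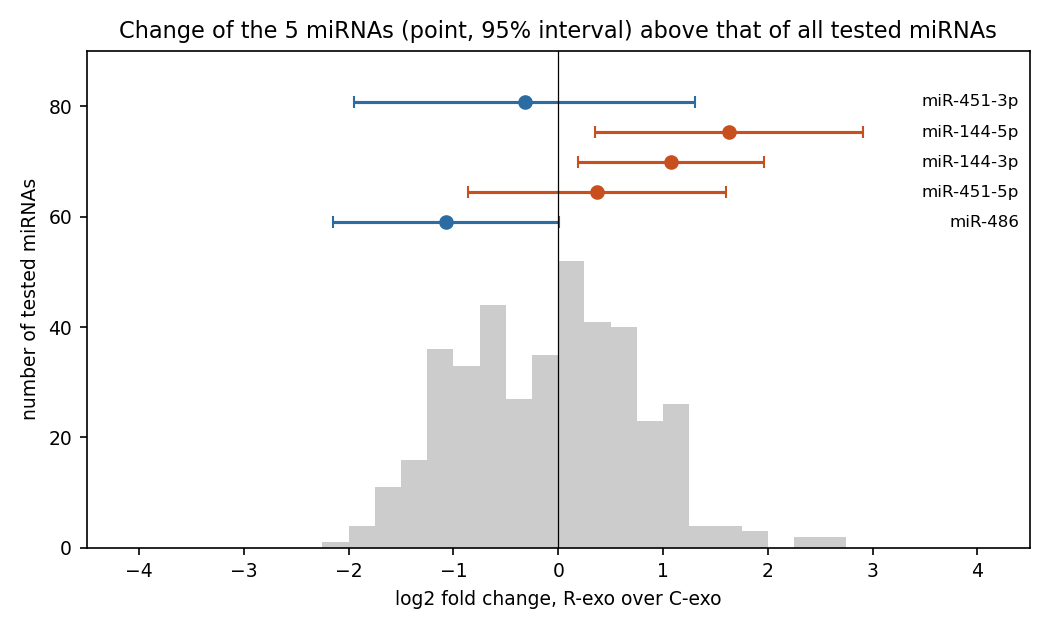
Log2 fold change of R-exo over C-exo from edgeR for the 5 miRNAs (points, with 95% intervals as bars, orange above 0 and blue below, not on the vertical scale) over a histogram of the 404 tested miRNAs (grey, number per bin). The intervals of miR-144-3p and miR-144-5p lie above 0, that of miR-486 ends at 0.01, and those of both miR-451 arms cross 0.

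miR-486 also made up most of what the 5 miRNAs took of each library. It held 15.9% of all miRNA counts in C-exo replicate 1, 9.999% in C-exo replicate 2 and 6.01% in C-exo replicate 3, against 4.73%, 6.79% and 5.92% in the R-exo libraries. The Wilson 95% interval of each of these shares spans less than 0.1 percentage points and reflects counting alone, as amplified reads that carry no molecular tags are not independent molecules. The 5 miRNAs together held 11.0 ± 4.86% of the counts in C-exo and 6.27 ± 1.17% in R-exo (SD, n = 3 each), with overlap between groups and an exact permutation p of 0.2. The difference was -4.68 percentage points, and -2.10 without C-exo replicate 1. With miR-486 left out of the sum and of the total, the 4 arms of miR-144 and miR-451 held 0.336 ± 0.135% in C-exo and 0.489 ± 0.234% in R-exo (exact permutation p = 0.5), so the sign of the difference turned. Between 90.8% and 98.8% of the reads on the 5 miRNAs were on miR-486.

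**Figure D3:**
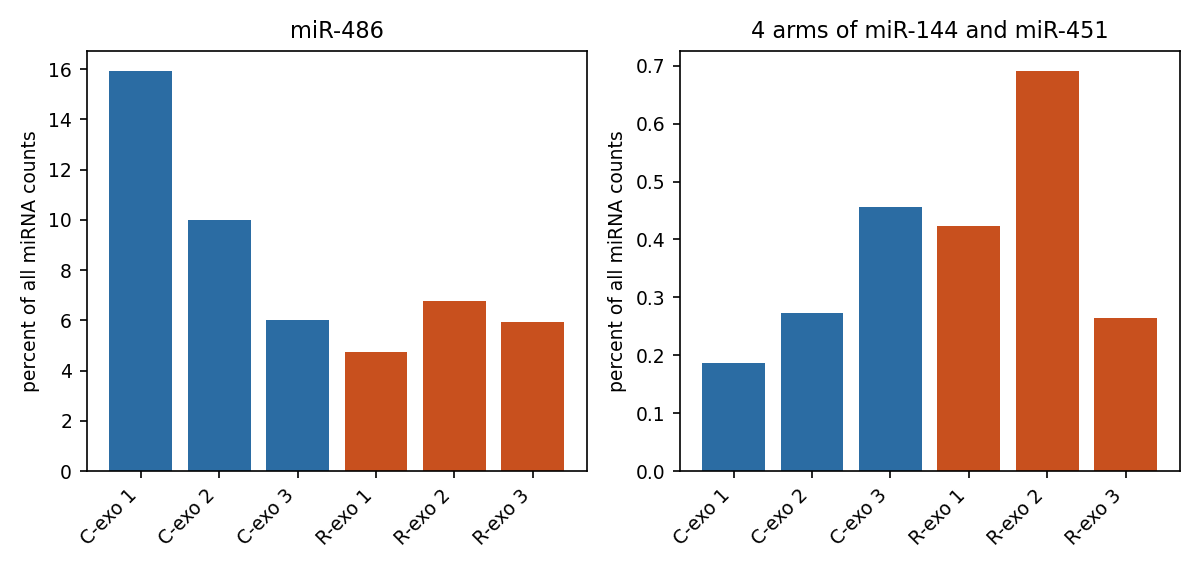
Percent of all miRNA counts held by miR-486 (left) and by the 4 arms of miR-144 and miR-451 together (right) in each library, with C-exo in blue and R-exo in orange. C-exo replicate 1 has the highest miR-486 share at 15.9%, and R-exo replicate 2 the highest share of the 4 arms.

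Ratios between miRNAs within a library need no scaling between libraries, and they compare partners directly. For each ratio 0.5 was added to the counts. The arms of miR-144, cut from a single hairpin, come first. miR-144-5p made up 17.4%, 10.6% and 30.3% of the miR-144 reads in C-exo replicates 1, 2 and 3, and 22.5%, 31.3% and 26.7% in R-exo replicates 1, 2 and 3. The groups overlapped because C-exo replicate 3 had nearly the share of R-exo replicate 2. The log2 ratio of miR-144-5p over miR-144-3p was higher in R-exo by 0.71 on average (exact permutation p = 0.3), and by 1.20 without C-exo replicate 3 but 0.26 without C-exo replicate 2. Over 114 hairpins with both arms tested, the median size of such a shift was 0.70, and 56 of them, Mir144 included, had one of at least this size.

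Across the neighbouring hairpins, each arm of miR-144 was set against miR-451-5p. The log2 ratio of miR-144-3p over miR-451-5p was -3.25, -3.63 and -4.59 in controls and -3.04, -3.72 and -2.46 after RIPC, with overlap (difference 0.75, exact permutation p = 0.3). That difference was 0.37 without C-exo replicate 3 and 0.44 without R-exo replicate 3. In counts, miR-451-5p was 5.50 to 24.0 times as frequent as miR-144-3p across the 6 libraries. The log2 ratio of miR-144-5p over miR-451-5p was -5.50, -6.70 and -5.79 in controls and -4.83, -4.86 and -3.92 after RIPC. Here all R-exo libraries were above all C-exo libraries, by 1.46 on average (exact permutation p = 0.1), and by 1.11 to 1.71 when any 1 library was dropped. The order of the libraries was shared only in part. R-exo replicate 2 was the highest library for miR-144-3p, miR-144-5p and miR-451-5p, and C-exo replicate 2 was the lowest for both miR-144 arms. R-exo replicate 3, however, ranked 3 and 2 of 6 for the miR-144 arms but 5 for miR-451-5p.

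The mean of miR-486 differed in the direction opposite to that of the miR-144 arms. The log2 ratio of miR-144-3p over miR-486 was -9.85, -8.96 and -8.39 in controls and -6.73, -7.17 and -7.27 after RIPC. The groups did not overlap, and the ratio was higher in R-exo by 2.01 (exact permutation p = 0.1), a 4.03-fold difference that stayed between 1.62 and 2.35 on the log2 scale when any 1 library was dropped. The log2 ratio of miR-486 over miR-451-5p was 6.60, 5.32 and 3.81 in controls and 3.69, 3.45 and 4.81 after RIPC, with overlap, because C-exo replicate 3 lay within the R-exo range. The difference of that ratio was -1.26 (exact permutation p = 0.2), and it was -0.58 without C-exo replicate 1 and -1.98 without C-exo replicate 3. Across the 6 libraries the log2 CPM of miR-451-5p and miR-486 had Pearson's r = -0.40 (exact permutation p = 0.45) and Spearman's rho = -0.31 (exact permutation p = 0.56), and r = -0.70 without C-exo replicate 3 and R-exo replicate 2, the 2 libraries farthest from the median of miR-451-5p. Without C-exo replicate 1, r was -0.03 (exact permutation p = 0.98). Of the pairs among the 5 miRNAs this was the only one tested, so adjustment leaves these p-values as they are. Pairs with miR-451-3p were left out, as it had fewer than 10 counts in 1 library, and for the remaining 5 pairs, each with a miR-144 arm, no r is given because those arms separated the groups.

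**Figure D4:**
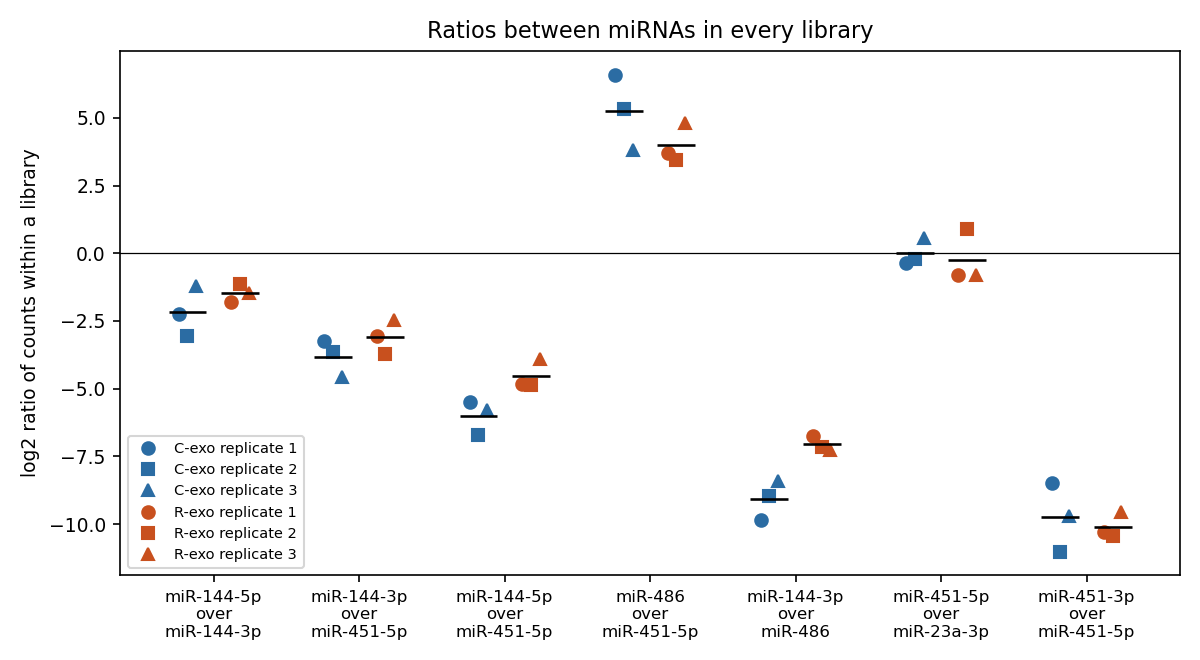
Log2 ratio of the counts of pairs of miRNAs in each library (C-exo blue, R-exo orange, marker shape by replicate, black lines the group means, n = 3). Only miR-144-5p over miR-451-5p and miR-144-3p over miR-486 separate the groups among the 7 ratios drawn.

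The size of these gaps can be read against other miRNAs. The log2 fold changes of the 2 arms of a hairpin differed by a median of 0.71 over 93 tested pairs (only miRNAs made from a single hairpin, unlike the 114 above), those of arms from different hairpins within 10000 bases on a strand by 0.75 over 318 pairs, and those of all 58653 pairs of such miRNAs by 0.82. The miR-144 arms differed by 0.55, and miR-144-3p and miR-451-5p by 0.70, both near or under these medians. miR-144-5p and miR-451-5p differed by 1.26. Against miR-486 the differences were 2.15 for miR-144-3p, 2.70 for miR-144-5p and 1.44 for miR-451-5p. These are descriptions over miRNAs, which are not independent replicates.

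The balance of the arms was unlike between the hairpins. miR-451-3p made up 0.276%, 0.0455% and 0.117% of the miR-451 reads in controls and 0.0777%, 0.0713% and 0.128% after RIPC. The Wilson 95% interval was 0.187% to 0.407% in C-exo replicate 1 and 0.0231% to 0.0898% in C-exo replicate 2, 2 intervals that do not overlap but cover counting error only. Over all libraries the minor arm held 0.0987% of the reads of miR-451 and 25.3% of those of miR-144, against a median of 0.815% over 162 hairpins with at least 1000 reads. Of those hairpins 50 had a smaller minor share than miR-451 and 16 a larger one than miR-144.

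miR-101a-3p and miR-101b-3p, whose seeds differ from that of miR-144-3p in the last base, were more abundant by CPM than miR-144-3p in every library. miR-101a-3p reached 459, 793 and 1453 CPM in controls and 1239.7, 1355 and 1508 CPM after RIPC. The log2 fold changes were 0.60 for miR-101a-3p and 0.54 for miR-101b-3p (unadjusted p = 0.26 and 0.30 by edgeR), and the groups overlapped for both, as C-exo replicate 3 was above at least 1 R-exo library. By Pearson's r of log2 CPM over the 6 libraries, the miRNAs outside the set most like miR-451-5p were miR-217-5p (0.92), miR-106b-5p (0.88) and miR-130b-3p (0.88). They are given as descriptions out of 399 miRNAs compared, on points that share library and depth, and none is given for miR-144-3p, whose groups did not overlap. miR-217-5p was at 5.38, 6.66 and 19.3 CPM in controls and 19.8, 125 and 10.4 CPM after RIPC. Its highest library, R-exo replicate 2, was also the highest for miR-451-5p, and r without that library was not computed. miR-217-5p met the criterion, with a log2 fold change of 2.30 (unadjusted p = 0.035 by edgeR).

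Red cells carry other miRNAs besides these, and 12 of them were listed, among them members of the miR-17/92, miR-106b/25, miR-15/16 and miR-183/96/182 groups. Of the 12, 11 passed the filter on low counts, and 0 met the criterion in either direction or had an unadjusted p under 0.05 by edgeR, where 9.41% of all tested miRNAs met it. Their median log2 fold change was 0.43, against -0.05 over all tested miRNAs, with 9 above 0 and 2 below, and 0 of 11 separated the groups, against 12.9% of all tested miRNAs. The most abundant was miR-25-3p, at 12786, 7437 and 15103 CPM in controls and 10359, 18638 and 9254 CPM after RIPC. Its log2 fold change was 0.11, and those of miR-92a-3p and miR-185-5p, the next by mean level over all 6 libraries, were -0.09 and -0.33 (unadjusted p = 0.81, 0.88 and 0.44 by edgeR). miR-16-5p, singled out with its values in view, was uneven among the controls, with 90.1 and 73.5 CPM in C-exo replicates 1 and 2 but 638 CPM in C-exo replicate 3, against 428, 854 and 629 CPM in R-exo. The summed level of the list was 12169 to 30451 CPM in C-exo and 17553 to 31732 CPM in R-exo, so the groups overlapped.

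**Figure D5:**
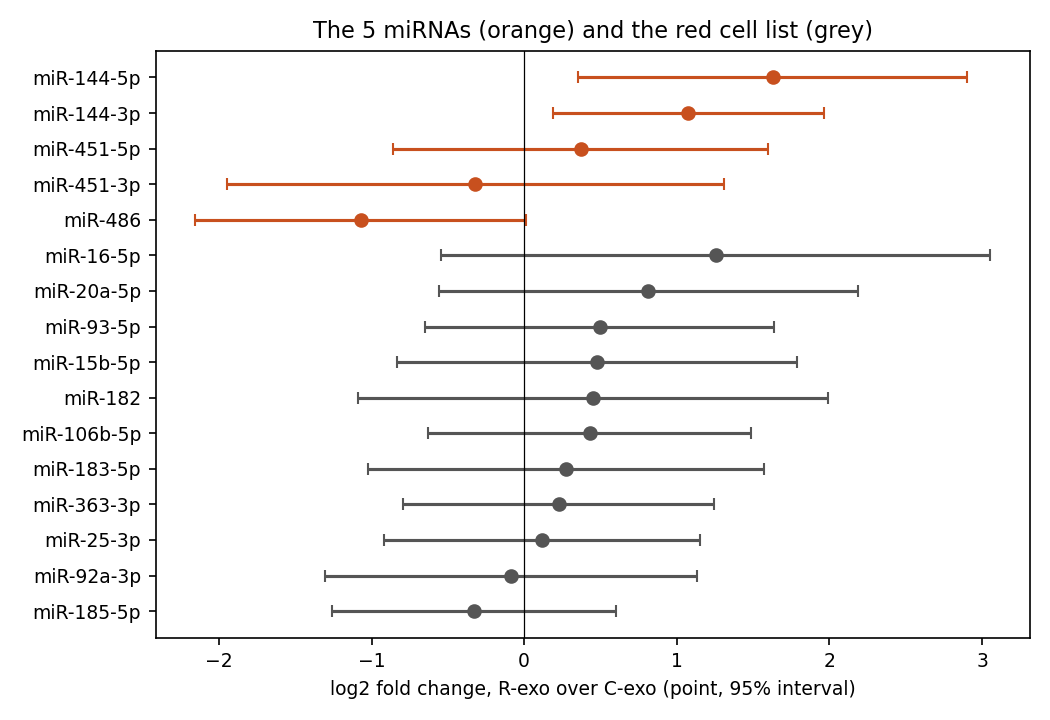
Log2 fold change of R-exo over C-exo with its 95% interval from edgeR for the 5 miRNAs (orange) and the 11 tested miRNAs of the red cell list (grey). The intervals of all 11 listed miRNAs cross 0, and those of miR-144-5p and miR-144-3p lie above it.

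The ratio of miR-451-5p to miR-23a-3p, a miRNA of plasma that red cells contribute little to, is widely used as a sign of hemolysis. Its log2 value was -0.36, -0.22 and 0.56 in controls and -0.79, 0.88 and -0.82 after RIPC. C-exo replicate 3 and R-exo replicate 2 were the libraries above 0, and the groups overlapped (difference -0.24, exact permutation p = 0.6). The sign of this difference turned without C-exo replicate 3, R-exo replicate 1 or R-exo replicate 3, and it was -0.80 without R-exo replicate 2. C-exo replicate 3 and R-exo replicate 2 were the 2 highest for miR-451-5p, which is the numerator of this ratio and so no separate observation. The denominator itself was higher in every R-exo library than in any C-exo library, at 2599, 2616 and 3118 CPM in controls against 5487, 3389 and 3637 CPM after RIPC, with a log2 fold change of 0.59 (unadjusted p = 0.19 by edgeR). The part of red cell lysis in the levels of these miRNAs was not tested. Of the markers of other blood cells, the 3 of platelets and endothelium summed to 5516 to 17216 CPM in C-exo and 20973 to 30664 CPM in R-exo. Most of that sum was miR-126a-3p, which itself met the criterion with a log2 fold change of 1.34 (unadjusted p = 0.029 and adjusted p = 0.46 by edgeR), while miR-126a-5p (0.45) and miR-223-3p (-0.36) overlapped between the groups. The 4 of leukocytes summed to 3131 to 20968 CPM in C-exo and 11151 to 26499 CPM in R-exo, with overlap. All 4 had log2 fold changes above 0, with a median of 0.92, but 0 met the criterion (miR-142-3p had 0.97, unadjusted p = 0.062 by edgeR), and none of these 7 was at 0 in any library. Their part in the results for miR-144 and miR-486 was not tested, and in bulk libraries fewer vesicles from a cell type and less miRNA per vesicle cannot be told apart.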

How the data were processed

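Small RNA libraries of plasma exosomes (3 C-exo, 3 R-exo) were made by adaptor ligation, reverse transcription and PCR and sequenced on an Illumina HiSeq 2500. The authors deposited raw counts of reads on 763 mature miRNAs. The submitters' processing notes name bcl2fastq, BWA and the genome build rn6, without versions. How reads were trimmed, how many mismatches were allowed and where reads with more than 1 matching miRNA went are not given in the sources used here, and these could move reads between related miRNAs. Groups and replicate numbers came from the sample titles, and 0 columns were left unused. The chi-square of counts per degree of freedom between replicates of a group was at least 644, so no library repeats another of its group. Pairs across the groups were not compared in this way.

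The analysis used edgeR 4.0.16 (R 4.3.3). filterByExpr (minimum count 10, minimum total 15) kept 404 of 598 miRNAs with any count. TMM normalization and the quasi-likelihood test (glmQLFit, glmQLFTest) were fitted over all 404 with a single term for RIPC and p-values adjusted by Benjamini-Hochberg. Standard errors came from the fold change and its F statistic. log2 CPM used a prior count of 2. Single values and ratios were compared by exact two-sided permutation tests. The code of the fit was run on simulated data with known changes. How well the fit recovers changes at the spread of these libraries was not tested. Alternatives were other scalings, no filter, DESeq2 1.42.0, limma-voom (limma 3.58.1), the replicate number as a block, other pseudocounts and each library left out in turn. Sequences and gene order came from RefSeq (GRCr8). Of the 5 miRNAs, 4 were matched by name to the sequence table used here. Figures were drawn with matplotlib 3.10.9.

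The miRNAs named were the 5 members, miR-23a-3p, the 3 miRNAs most like miR-451-5p (those most like miR-144-3p were left out, since its groups did not overlap), seed partners, cell type markers and the red cell list with values for its 3 most abundant. Members and lists were chosen with earlier results of these data known.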

Additional observations from a re-analysis of the deposited data

How the results depend on the processing

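The log2 fold change of miR-144-3p was between 1.04 and 1.23 and that of miR-144-5p between 1.63 and 1.81 under the 8 alternatives with all 6 libraries, and each met the criterion in all 8 (edgeR, DESeq2 or limma-voom). Dropping any 1 library gave 0.96 to 1.19 and 1.30 to 2.23. miR-486 stayed below 0 throughout. Unlike in the fit reported, it met the criterion with a normalization without the 5 miRNAs (-1.11) and without the filter on low counts (-1.04). It also did so without C-exo replicate 3 (-1.35). With each library left out it ranged from -1.35 to -0.56. That range was -0.17 to 0.84 for miR-451-5p and -0.76 to -0.003 for miR-451-3p, and limma-voom turned miR-451-3p to 0.045. The log2 ratio of miR-451-5p over miR-23a-3p ranged from -0.80 to 0.049 with each library left out, and that of miR-451-3p over miR-451-5p from -1.01 to 0.27. The summed share turned from -4.68 to 0.15 percentage points when miR-486 was left out. The cause of these changes was not tested.

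Over all tested miRNAs 38 met the criterion, 63 did so without the filter on low counts, and between 15 and 182 with each library left out (182 without C-exo replicate 3, 15 without C-exo replicate 1 or R-exo replicate 3, 16 without R-exo replicate 2 and 18 without C-exo replicate 2). The number with an adjusted p under 0.05 was 0 in every fit except that without C-exo replicate 3, which gave 132 (range 0 to 132). Of the 38, 8 were higher in R-exo, against 18 of 33 with library size only and 27 of 49 with limma-voom.

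With the replicate number as a block the log2 fold changes were 1.07 for miR-144-3p, 1.75 for miR-144-5p, 0.34 for miR-451-5p, -0.15 for miR-451-3p and -0.92 for miR-486, no call of these 5 changed, and 38 miRNAs again met the criterion, 25 of them higher in R-exo. The deviations of libraries with the same number correlated at 0.33, -0.28 and 0.28, and those with unlike numbers at -0.50 to 0.42. As deviations from means of 3 libraries, these values cannot decide whether the numbers pair the libraries. Pairs of replicate numbers allow no p below 0.25 for a ratio.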
